A study of Mus musculus with 19 samples.

Results

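The 7 genes described here are grouped as scavenger and mannose receptors of macrophages: Mrc1, Cd5l, Msr1, Marco, Cd36, Scarb1 and Stab1. Cd5l encodes a secreted protein of the scavenger receptor cysteine-rich family, and is counted among the receptors here only as part of this list. They were chosen by symbol, as the table rows with these names, and are 7 of 16941 genes in the count tables. All 7 passed the filter on low counts, among 14113 genes tested, and none was at 0 counts in any library. The cells were microglia, the resident macrophages of the brain, grown from cortices of C57BL/6 background mice that were 10 to 11 months old. Wild-type mice (WT) were compared with hAPPJ20 mice (APP), which carry a human amyloid precursor protein transgene with the Swedish and Indiana familial Alzheimer mutations (APPSw,Ind) under the PDGF promoter, a promoter used to drive expression in neurons. Before treatment, each culture had 4 weeks in medium with 10% serum and macrophage colony-stimulating factor at 5 ng/mL. Lipopolysaccharide (LPS), the Toll-like receptor 4 ligand of Gram-negative bacteria, was added at 100 ng/mL for 6 h, and vehicle cultures received medium alone. After the exposure both kinds of culture had fresh medium for 16 h, and RNA then went to 3′ mRNA sequencing. There were 4 WT vehicle libraries and 5 each of WT LPS, APP vehicle and APP LPS. Whether 2 libraries of a group stem from different mice or dishes is not in the labels, and p-values therefore refer only to the variation among these libraries, part of which may be technical.

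Scavenger receptors are structurally unrelated membrane proteins that bind and internalise altered lipoproteins, dying cells, microbes and protein aggregates, and several of them bind amyloid β fibrils. The mannose receptor is a C-type lectin that clears glycoproteins with exposed mannose, and it is used as a marker of alternatively activated and border-associated macrophages. In the healthy brain it is found mainly on perivascular and meningeal macrophages rather than on parenchymal microglia.

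Levels are given as CPM, a gene's counts scaled to a common library total. Each read marks the 3′ end of a transcript. No test here compares levels of different genes, and where such levels stand side by side they are a rough guide only. The label of microglia was checked against its markers. Of 10 microglia markers 9 were measured, and their summed level was 307 to 1194 CPM in WT vehicle, 242 to 717 in WT LPS, 245 to 1188 in APP vehicle and 185 to 728 in APP LPS. Among them Csf1r, which other macrophages also express, averaged 172 CPM. The transcripts most specific to microglia were low: Tmem119 averaged 6.06 CPM and was at 0 in 3 libraries, P2ry12 averaged 6.81 CPM with 6 libraries at 0, and Siglech was at 0 in 15 of 19 libraries. Pf4 and Ms4a7, both carried by border-associated macrophages, averaged 2624 and 703 CPM. The other listed markers of those cells averaged 36.8 CPM (Cd209f) or less, among them Cd163 and Lyve1 at 4.08 and 1.53 CPM. Transcripts of other cells were abundant too. Markers of pericytes, smooth muscle and fibroblasts summed to 25714 to 80038 CPM across the libraries. Most of that was Lrrc17, which averaged 40210 CPM. Dcn averaged 1237 CPM and the rest 449 CPM (Col3a1) or less. Their part in the receptor levels was not tested.

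The libraries did not hold equal amounts of macrophage transcripts. The summed level of 14 macrophage markers was 4344 to 8648 CPM in the 4 libraries numbered 57 to 60 (APP vehicle 5 and LPS 5, WT vehicle 4 and LPS 5) and 13793 to 24171 CPM in the other libraries. By group it was 8648 to 21949.8 CPM in WT vehicle, 7290.4 to 24171 in WT LPS, 5837 to 22124 in APP vehicle and 4344 to 20039 in APP LPS. One such library stood in each group. In these bulk samples, fewer cells of a type and less RNA per cell cannot be told apart. Library totals ran from 13065257 to 31248988 counts.

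The promoters of 4 members are printed first: Mrc1, Cd5l and Stab1, which were lower with LPS in most library pairs below, and Marco, which was not. Each sequence is the 250 bases before the RefSeq start of the gene (GRCm38.p6), on the gene's own strand, 5′ to 3′. Capitals mark GAGGAA, the core of the binding site of PU.1, the transcription factor on which macrophage identity depends, on either strand (TTCCTC where it lies on the other strand). RefSeq promoters were matched for 5 of the 7 members, by symbol.
Mrc1, chr2:14229164-14229413, plus strand: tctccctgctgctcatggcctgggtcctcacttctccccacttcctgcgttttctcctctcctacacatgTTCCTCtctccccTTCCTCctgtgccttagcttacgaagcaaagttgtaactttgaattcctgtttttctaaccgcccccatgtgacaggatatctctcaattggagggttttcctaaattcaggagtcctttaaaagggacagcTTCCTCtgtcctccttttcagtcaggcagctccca
Cd5l, chr3:87357631-87357880, plus strand: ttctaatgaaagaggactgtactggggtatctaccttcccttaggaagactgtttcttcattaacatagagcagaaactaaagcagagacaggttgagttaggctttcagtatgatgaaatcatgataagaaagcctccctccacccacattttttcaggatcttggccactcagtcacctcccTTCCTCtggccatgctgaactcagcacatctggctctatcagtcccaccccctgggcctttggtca
Stab1, chr14:31168642-31168891, minus strand: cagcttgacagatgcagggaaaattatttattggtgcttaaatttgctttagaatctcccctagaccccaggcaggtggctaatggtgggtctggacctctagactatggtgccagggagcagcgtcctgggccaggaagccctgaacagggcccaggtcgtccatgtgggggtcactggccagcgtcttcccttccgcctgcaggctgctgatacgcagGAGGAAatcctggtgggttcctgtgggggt
Marco, chr1:120505025-120505274, minus strand: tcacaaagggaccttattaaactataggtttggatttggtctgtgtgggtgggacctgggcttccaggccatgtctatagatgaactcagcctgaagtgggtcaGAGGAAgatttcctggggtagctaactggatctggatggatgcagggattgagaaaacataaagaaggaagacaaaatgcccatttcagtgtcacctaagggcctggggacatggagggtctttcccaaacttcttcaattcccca

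The PU.1 core stood in 4 of the 5 matched promoters, those printed, and not in that of Cd36. The Cd36 window (chr5:17835897-17836146, minus strand) lies inside the span of the gene. Unlike for the 4 printed genes, the bases after its start were not found near the beginning of an annotated transcript. What is said of Cd36 here holds for that window only. The core was found 3 times in the promoter of Mrc1 (180, 167 and 35 bases before the start) and once each in those of Cd5l (66 bases), Stab1 (30 bases) and Marco (146 bases). It was found in 23.1% of 27018 RefSeq promoters of the same length. The AP-1 type motif TGANTCA (6.87% of promoters), the E-box CACGTG (6.05%), the MAF core TGCTGAC (3.72%) and the TATA box TATAAA (13%) had no match in the 5 windows, which says only that these letters are not there, and neither had the direct repeats of LXR and PPAR. Motifs of the NF-kB type (17.3% of promoters) and the C/EBP type (36.9%) matched in Mrc1, Marco and Cd36, and overlapped each other in Marco, and a STAT6 type motif (5.86%) matched in Cd5l. Both strands were searched. A match of letters is a description of the window and not evidence that a factor binds there.

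Mrc1 encodes the mannose receptor CD206 (GRCm38 chromosome 2, 14229392 to 14332057, plus strand; up to 30 exons). It was at 745, 364, 724 and 362 CPM in WT vehicle libraries 1 to 4 and at 347, 268, 193, 434 and 120.2 CPM in WT LPS libraries 1 to 5. In APP it was at 383, 685, 169, 769 and 198 CPM with vehicle and at 124, 309.7, 96.4, 320.5 and 48.2 CPM with LPS. The vehicle groups were the higher ones in both genotypes, but the ranges overlapped: WT LPS 4 lay above WT vehicle 2 and 4, and APP LPS 2 and 4 lay above APP vehicle 3 and 5. As means, WT went from 549 ± 215 CPM (SD, n = 4) to 272 ± 123 CPM (n = 5), and APP from 441 ± 276 to 179.8 ± 127 CPM (n = 5 each). In the fit with 1 coefficient per group the log2 change was −1.01 ± 0.51 (SE) in WT and −1.29 ± 0.49 in APP, with adjusted p-values of 1 and 0.956 (edgeR's quasi-likelihood test with Benjamini-Hochberg adjustment over the 14113 genes).

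Libraries of consecutive number were also compared as pairs. There are 9 such vehicle and LPS pairs, 4 WT and 5 APP, and WT LPS 1 has no partner. The APP pairs carry the same replicate number in their titles. Mrc1 was lower with LPS in 9 of 9 pairs. The log2 differences were −1.47, −0.91, −0.74 and −1.59 in the WT pairs 9/10, 21/22, 41/42 and 57/58, and −1.63, −1.15, −0.81, −1.26 and −2.04 in the APP pairs 3/4, 7/8, 11/12, 51/52 and 59/60. The LPS library thus held between 0.244 and 0.599 times the CPM of its partner, with a median of 0.417. Of all genes tested, 1.06% were lower in 9 of 9 pairs.

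With the library pair as a block, Mrc1 fell in WT by 1.18 ± 0.18 on the log2 scale (edgeR adjusted p = 0.00942) and in APP by 1.37 ± 0.16 (adjusted p = 5.25e-04). Averaged over both genotypes it fell by 1.28 ± 0.12 (adjusted p = 1.86e-05). It was called in APP and in the average with each of the 9 pairs left out in turn. In WT it was called in 7 of 9 such fits, and not without pair 9/10 or pair 57/58 (highest adjusted p = 0.0586). Of the 4 WT pairs, 41/42 missed the limit set for taking numbers as pairs. In a fit of the APP libraries alone, Mrc1 also fell (adjusted p = 0.0189). With the pair as a random effect in limma voom, Mrc1 was called in the average (adjusted p = 0.0227) but not in WT (0.494) or APP (0.173). With title numbers as the block it was likewise called in edgeR's average (adjusted p = 0.0277) and not in WT (1) or APP (0.114).

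**Figure D1:**
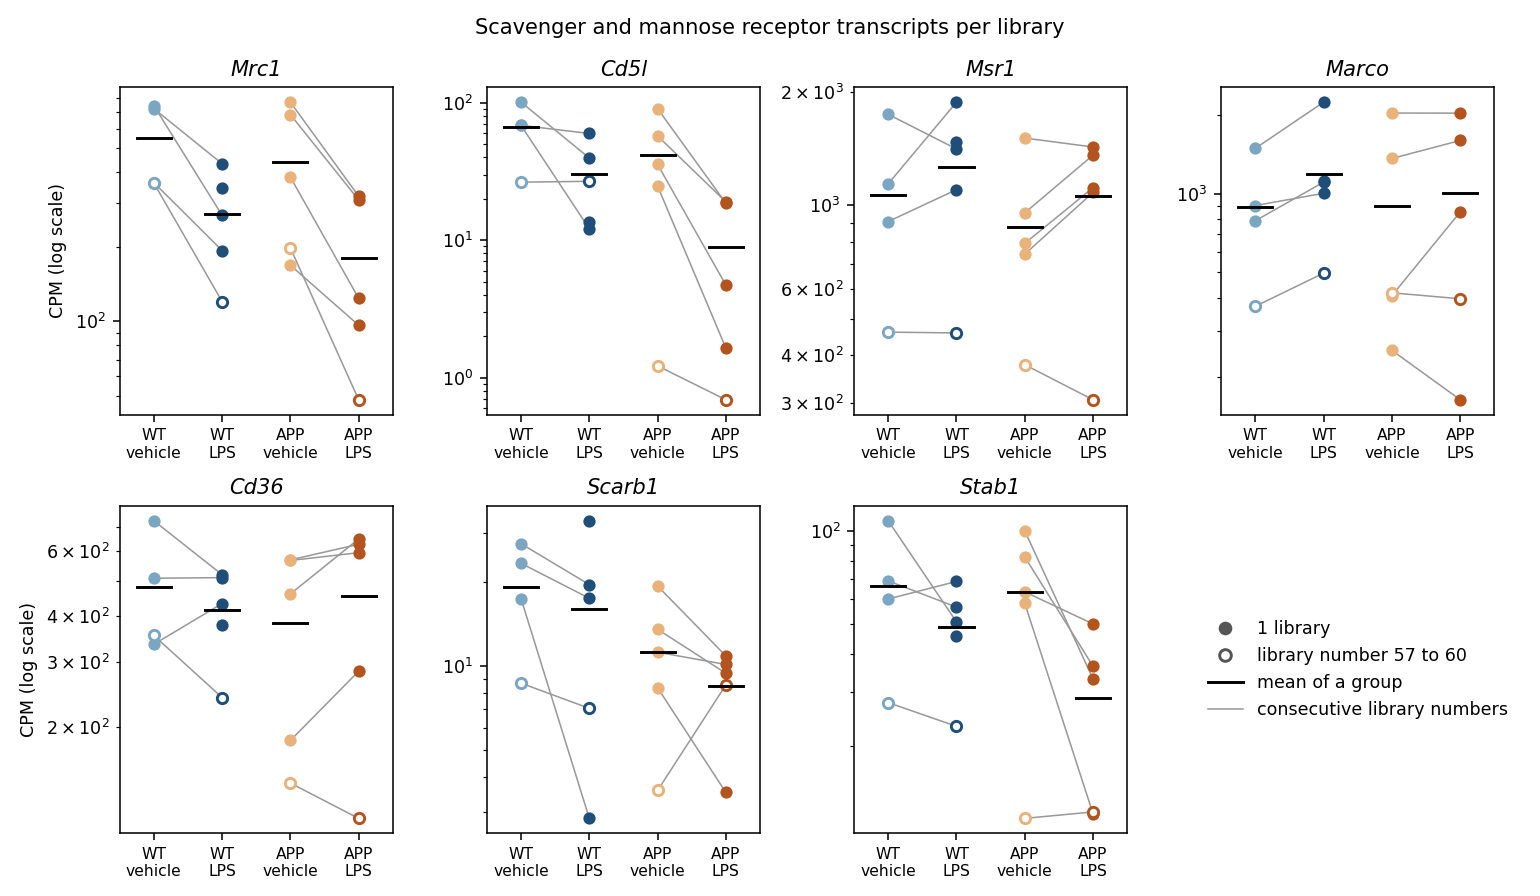
CPM (log scale) of the 7 receptor genes in each library, by genotype and treatment. Points are single libraries, open points are library numbers 57 to 60, black lines are group means and grey lines join consecutive library numbers. In the Mrc1 panel all 9 grey lines go down from vehicle to LPS, while the open points are among the lowest of their group in most panels.

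Cd5l encodes a secreted protein of the scavenger receptor cysteine-rich family, made by tissue macrophages and known as an inhibitor of their apoptosis (chromosome 3, 87357881 to 87371073, plus strand; 6 exons). Its level was 68.4, 101, 68.4 and 26.4 CPM in WT vehicle 1 to 4 and 13.5, 12.1, 39.6, 59.8 and 26.8 CPM in WT LPS 1 to 5. APP vehicle libraries held 35.6, 24.8, 90.6, 57.4 and 1.22 CPM, and APP LPS libraries 4.72, 1.64, 18.6, 19.02 and 0.690 CPM. The 4 highest APP libraries were all vehicle libraries and lay above every APP LPS library, but APP vehicle 5 lay below all but 1 of them. Cd5l had the widest range of the 7 genes, 146-fold from APP LPS 5 to WT vehicle 2, and the lowest value rests on 15 counts.

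Cd5l was lower with LPS in 8 of 9 pairs, which 3.24% of all genes tested were. The log2 differences were −2.89, −3.84, −2.28, −1.59 and −0.74 in the 5 APP pairs, by library number, and −2.49, −1.35, −0.20 and 0.02 in the 4 WT pairs. With the pair as a block it fell by 2.35 ± 0.43 in APP (adjusted p = 0.0137) and by 1.67 ± 0.31 over both genotypes (adjusted p = 0.00699). The WT value of −0.99 ± 0.45 was not called (adjusted p = 0.962). The average was called with any 1 pair left out, but not with the pair as a random effect in limma voom (adjusted p = 0.384, and 0.613 in APP) or with title numbers as the block in edgeR (adjusted p = 0.0908, and 0.285 in APP). The APP call was lost without 3/4, without 7/8 or without 11/12 (highest adjusted p = 0.106), and in the APP libraries alone (adjusted p = 0.118). The difference between the genotypes in the LPS change was −1.36 ± 0.62 and was not called (adjusted p = 1).

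Stab1 encodes stabilin-1, a large endocytic receptor for modified lipoproteins and apoptotic cells that is expressed by alternatively activated macrophages and by sinusoidal endothelium (chromosome 14, 31139013 to 31168641, minus strand; up to 69 exons). In WT it was at 108, 68.9, 60.2 and 27.7 CPM with vehicle and at 45.5, 50.7, 56.6, 68.6 and 23.2 CPM with LPS. In APP it was at 58.2, 100.1, 82.4, 63.5 and 11.7 CPM with vehicle and at 12.1, 33.1, 36.4, 49.9 and 12.2 CPM with LPS. Leaving APP vehicle 5 aside, every APP vehicle library lay above every APP LPS library, whereas the WT groups overlapped broadly.

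Stab1 was lower with LPS in 7 of 9 pairs. Its log2 change with the pair as a block was −1.07 ± 0.30 in APP (adjusted p = 0.144) and −0.36 ± 0.32 in WT (adjusted p = 1), and neither was called. Without libraries 57 to 60, Stab1 fell in APP by 1.35 ± 0.30 (adjusted p = 0.0218) and over both genotypes by 0.87 ± 0.22 (adjusted p = 0.0417). Endothelial markers, which share Stab1, summed to 438 to 838 CPM in WT vehicle, 277 to 633 in WT LPS, 371 to 750.5 in APP vehicle and 399.7 to 744 in APP LPS. Most of that sum was Pecam1, which averaged 476 CPM. The other endothelial markers averaged 20.04 CPM (Flt1) or less, with Cdh5 at 18.5 and Cldn5 at 0.332 CPM. Of 10 tested endothelial markers 0 were called in the average over genotypes and 0 had a log2 change above 0. Their part in the result was not tested.

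Across the 7 receptors, the group fit called 0 members in WT and 0 in APP, where it called 0 of 14113 genes in each (0% of genes), with 516 and 679 at an unadjusted p under 0.05. Members under that unadjusted threshold were 0 in WT and 3 in APP (Mrc1, Cd5l and Stab1). DESeq2 called 0 members in WT, APP and the average, against 0.633%, 0.541% and 1.27% of genes. With library pairs as a block, 1 of 7 members was called in WT, against 0.149% of all genes, and 2 of 7 in APP, against 0.588%. Averaged over genotypes, the group fit called 0 of 7, against 0.0213% of genes, and the fit with pairs called 2 of 7, both lower, against 1.5% of all genes in either direction and 0.68% lower. The median log2 change of all genes was 0.03, −0.11 and −0.04 in these 3 contrasts. Because members and lists were chosen with earlier results of these data known, their called shares beside all genes are descriptive.

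**Figure D2:**
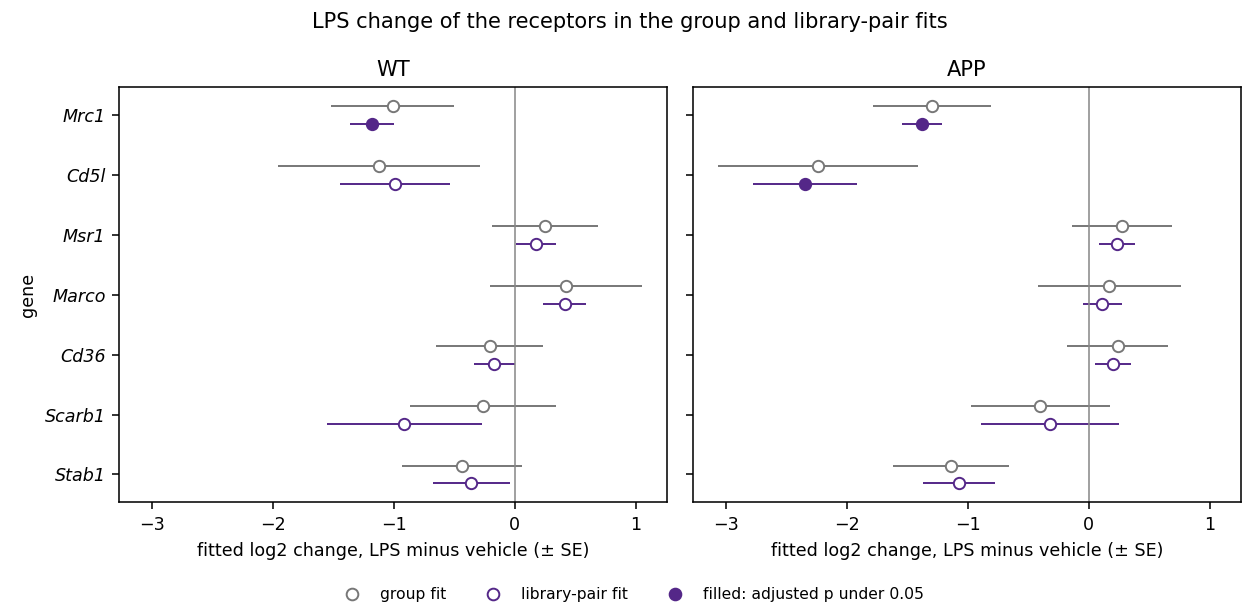
Fitted log2 change (LPS minus vehicle, ± SE) of each receptor gene in WT and APP, from the fit with 1 coefficient per group (grey) and the fit with library pairs as a block (purple). Filled points have an adjusted p under 0.05: Mrc1 in both genotypes and Cd5l in APP, all in the fit with pairs, whose error bars are the shorter ones for every gene but Scarb1 in WT.

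The class A scavenger receptors are trimeric proteins with a collagen-like stalk. Msr1 encodes the founding member, SR-A, which takes up acetylated and oxidised lipoproteins (chromosome 8, 39581685 to 39642673, minus strand). It was at 1140.2, 906, 1743 and 461 CPM in WT vehicle and at 1469.7, 1878, 1100.3, 1411 and 459 CPM in WT LPS. In APP it was at 742, 955, 793, 1508 and 378 CPM with vehicle and at 1082, 1359, 1114, 1428 and 305 CPM with LPS. The groups overlapped throughout, and libraries 57 to 60 were the lowest of each group.

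Marco encodes a class A receptor for bacteria and inhaled particles (chromosome 1, 120474538 to 120505024, minus strand). Its WT levels were 1488, 788, 900.2 and 372 CPM with vehicle and 1117, 2231, 1106, 1002 and 497 CPM with LPS. Its APP levels were 408, 252, 2027, 1361 and 418 CPM with vehicle and 851, 164, 2026, 1594 and 397 CPM with LPS. In APP the same 2 pairs, 11/12 and 51/52, were high under both treatments, and the pair 7/8 was low under both.

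With the pair as a block, the average LPS change was 0.20 ± 0.11 for Msr1 (adjusted p = 0.669) and 0.26 ± 0.12 for Marco (adjusted p = 0.506). Neither was called in WT or in APP. Marco was higher with LPS in 4 of 4 WT pairs (log2 0.16 to 0.58) and in 2 of 5 APP pairs, where the differences ran from −0.63 to 1.06. Msr1 was higher in 5 of 9 pairs.

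The class B receptors span the membrane at both ends of a lipid-binding loop. Cd36 encodes a receptor for long-chain fatty acids and oxidised lipoproteins (chromosome 5, 17781690 to 17888801, minus strand). It was at 508, 336, 727 and 355 CPM in WT vehicle and at 379, 509, 433, 519 and 241 CPM in WT LPS, and in APP at 184, 460.1, 567, 569 and 141 CPM with vehicle and 284, 649, 595, 627 and 113 CPM with LPS. The groups overlapped, 6 of 9 pairs were higher with LPS, and the average change of 0.02 ± 0.11 was near 0 (adjusted p = 1.0).

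Scarb1 encodes SR-BI, the receptor through which cells take cholesterol esters from high-density lipoprotein (chromosome 5, 125277087 to 125341094, minus strand). It was at 27.5, 17.5, 23.4 and 8.68 CPM in WT vehicle and at 33.2, 19.6, 2.84, 17.5 and 7.05 CPM in WT LPS. In APP it was at 19.4, 13.6, 8.36, 11.2 and 3.58 CPM with vehicle and at 10.9, 9.42, 3.52, 10.1 and 8.55 CPM with LPS. The highest library, WT LPS 1, has no partner. Scarb1 was lower with LPS in 8 of 9 pairs (against 3.24% of genes), and the exception was 59/60, where it was higher by 1.24. Its average change of −0.62 ± 0.43 was not called (adjusted p = 0.815).

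**Figure D3:**
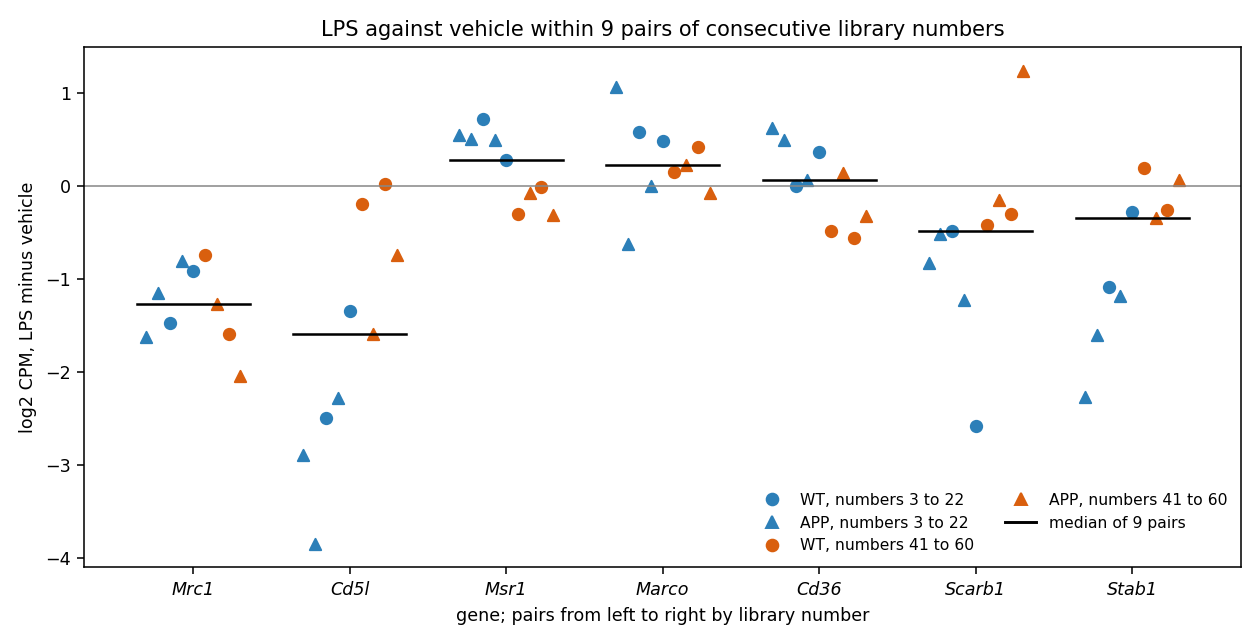
Difference in log2 CPM, LPS minus vehicle, for each receptor gene in the 9 pairs of consecutive library numbers. Circles are WT pairs, triangles APP pairs, blue marks library numbers 3 to 22, orange marks 41 to 60, and black lines are medians of 9 pairs. All Mrc1 points lie below 0, Cd5l and Stab1 points are lower in blue than in orange for most pairs, and the blue Msr1 points all lie above the orange ones.

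The comparison of genotypes asks whether cultured cells from APP mice held other receptor levels than those from WT mice. No member was called with vehicle or after LPS, where edgeR called 0% of genes in each, 402 and 482 genes had an unadjusted p under 0.05, and DESeq2 called 0 members, against 0.456% and 0.491% of genes. Cd5l after LPS averaged 30.4 ± 19.9 CPM in WT and 8.93 ± 9.13 CPM in APP (n = 5 each), a log2 difference of −1.77 ± 0.81 (adjusted p = 1). Scarb1 averaged 19.2 ± 8.15 CPM in WT vehicle (n = 4) and 11.2 ± 5.88 in APP vehicle (n = 5), and 16.0 ± 11.9 and 8.50 ± 2.91 CPM after LPS. The ranges of WT and APP overlapped for each of the 7 genes under both treatments, and those of vehicle and LPS in both genotypes. Of all genes, 0.843% did not overlap between genotypes with vehicle and 0.496% after LPS, and 1.3% and 0.588% did not overlap between vehicle and LPS in WT and APP. No interaction of genotype and LPS was called among the members in the group fit or with pairs, and edgeR called 0 genes in either. DESeq2 called no member for the interaction, against 0.705% of genes.

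The LPS changes of the members were also set out by library number. The split into pairs numbered 3 to 22 (3 APP and 2 WT) and 41 to 60 (2 APP and 2 WT) was chosen after the values were seen. Its p-values are therefore descriptive, and a call in 1 range alone does not show that the ranges differ. In pairs 3 to 22, with the pair as a block, 4 of 7 members were called, against 3.46% of all genes. Mrc1 fell by 1.19 ± 0.15 (adjusted p = 3.12e-05), Cd5l by 2.56 ± 0.34 (adjusted p = 5.03e-05) and Stab1 by 1.28 ± 0.24 (adjusted p = 0.00263), while Msr1 rose by 0.51 ± 0.09 (adjusted p = 0.00166). In pairs 41 to 60, 1 of 7 was called, against 0.149% of genes. Mrc1 fell there by 1.41 ± 0.17 (adjusted p = 4.90e-04), a call that was lost without libraries 57 to 60 (adjusted p = 0.125).

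The difference between the ranges was called for 1 member, Msr1, against 0.68% of genes. Its pair changes were 0.28 to 0.72 in pairs 3 to 22 and −0.31 to −0.01 in pairs 41 to 60, with a difference of −0.68 ± 0.14 (adjusted p = 0.0181). That call was kept in 6 of 9 fits with 1 pair left out, lost without 7/8, 41/42 or 59/60 (highest adjusted p = 0.106), and lost without libraries 57 to 60 (adjusted p = 0.182). For Cd5l the difference was 1.94 ± 0.50 (adjusted p = 0.100) and for Stab1 1.20 ± 0.36 (adjusted p = 0.209), and neither was called. For Mrc1 it was −0.21 ± 0.23 (adjusted p = 0.990). Changes of the ranges did not overlap for Msr1 and Scarb1, and for 3.51% of all genes.

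Il1b, the cytokine whose transcript served as a check of LPS exposure, moved with the same split. With vehicle it was at 6.36 to 26.1 CPM in libraries 3 to 22 and at 52.1 to 131 CPM in libraries 41 to 60, and with LPS at 197 to 729 and 265 to 437 CPM. Its LPS change was thus 4.68 ± 0.18 in the first range and 2.33 ± 0.18 in the second, a difference of −2.35 ± 0.23 (adjusted p = 7.27e-06). Whether the higher vehicle level of Il1b plays a part in the Msr1 difference was not tested.

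**Figure D4:**
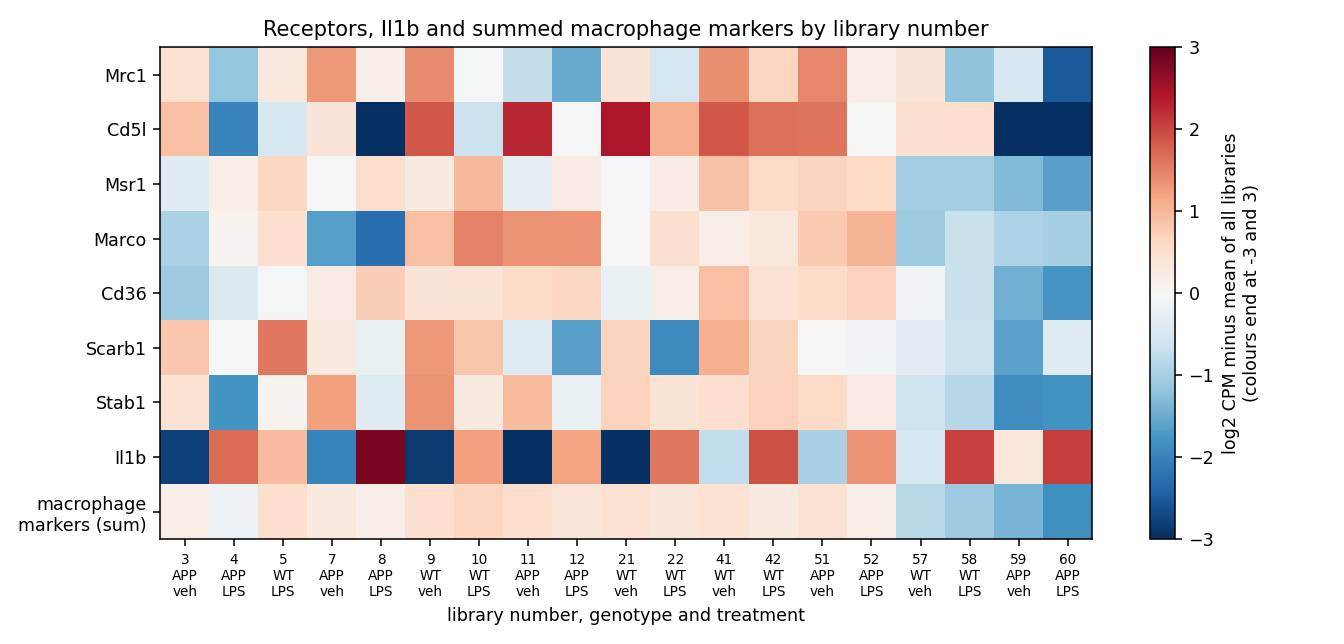
Log2 CPM of the 7 receptor genes, Il1b and the summed macrophage markers in each library, ordered by library number, as the difference from the mean of all 19 (colour scale ends at −3 and 3). The columns 57 to 60 are blue in most receptor rows and in the marker row, and Il1b is blue in the vehicle columns up to number 22.

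Set against the summed macrophage markers instead of the library total, Mrc1 was still lower with LPS in 9 of 9 pairs (median log2 −1.01, range −1.61 to −0.56) and Cd5l in 8 of 9 (median −1.34). Msr1 and Marco were each higher in 8 of 9 pairs on this scale (medians 0.39 and 0.45), against 5 and 6 of 9 by CPM. The marker sum was itself lower with LPS in every pair but 9/10, and a lower sum raises the ratio of any gene. How many of all genes were higher on this scale was not computed. The largest part of the sum was Lyz2, which averaged 9765 CPM. Cd36 was higher in 6 of 9 and Stab1 lower in 7 of 9. The range of Mrc1 across the 19 libraries narrowed from 16.0-fold to 8.71-fold and that of Msr1 from 6.15-fold to 2.29-fold, while that of Scarb1 widened from 11.7-fold to 13.7-fold. Scarb1 was lower with LPS in 7 of 9 pairs on this scale (median −0.37). Of the 14 macrophage markers, C1qa, C1qb and C1qc fell with LPS and Cd14 rose in the average with pairs, so the sum itself is not free of the treatment.

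Of 19 other scavenger receptors listed, 17 were tested, and with pairs 0 rose and 2 fell in the average over genotypes (1.5% of all genes were called in this contrast, and 0.68% were called lower), with a median log2 change of −0.07 against −0.04 for all genes. Cd68, a lysosomal glycoprotein of macrophages, fell by 0.54 ± 0.12 (adjusted p = 0.0274), and Lrp1, an endocytic receptor for apolipoprotein E and amyloid β, by 0.44 ± 0.10 (adjusted p = 0.0278). Cxcl16, a membrane chemokine that binds oxidised lipoproteins, changed by 0.47 ± 0.13 (adjusted p = 0.0774), and Scarb2, the lysosomal class B member, by 0.01 ± 0.10.

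Among other mannose receptor family members and C-type lectins, 15 of 19 listed genes were tested, 2 rose and 0 fell (median 0.21), against the same 1.5% of all genes called. Clec4e, which encodes the glycolipid receptor Mincle, rose by 1.68 ± 0.29 (adjusted p = 0.00318), from means of 212 to 479 CPM in WT and 172 to 404 CPM in APP. Clec4a1 rose by 0.81 ± 0.18 (adjusted p = 0.0275). The 3 most abundant, Clec4a2, Clec12a and Clec4d, changed by 0.72 ± 0.19, 0.28 ± 0.13 and 0.21 ± 0.11, and none passed.

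Of 24 listed partners of Cd36 and Scarb1 in lipid handling, 23 were tested, 4 fell and 1 rose (median −0.31), against 1.5% of all genes called. Apoe, the main apolipoprotein of the brain, fell by 0.90 ± 0.12 (adjusted p = 2.50e-04) and was also called in the group fit. Lpl, lipoprotein lipase, fell by 0.75 ± 0.10, Lipa, the lysosomal acid lipase, by 1.00 ± 0.13, and Fabp5, a fatty acid carrier, by 0.74 ± 0.13 (adjusted p = 3.49e-04, 2.93e-04 and 0.00353). Acsl1, which activates long-chain fatty acids, rose by 1.06 ± 0.13 (adjusted p = 2.02e-04). Npc2, which carries cholesterol out of lysosomes, changed by 0.11 ± 0.08 and did not pass.

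Of 20 regulators and alternative-activation genes 14 were tested, with a median log2 change of −0.05. Maf, a transcription factor of resident macrophages, changed by −0.38 ± 0.12 (adjusted p = 0.136), and Nfe2l2, the regulator of oxidant defence, by −0.11 ± 0.10. For comparison, all 16 genes of a short LPS response list rose (median 1.46), among them Il1b by 3.63 ± 0.34 and Tnf, tumour necrosis factor, by 1.57 ± 0.20 (adjusted p = 1.77e-05 and 2.29e-04).

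For each member the genes of most similar pattern, up to 3, were found by Pearson correlation of log2 CPM over the 19 libraries, among 9886 genes averaging at least 5 CPM. These libraries share treatment, depth and macrophage content, so the values are descriptive. For Mrc1 they were Dab2 (r = 0.85), an endocytic adaptor, Ncoa4 (0.84) and Mthfs (0.82). Cd5l was nearest to Fabp4 (0.90), Asdurf (0.88) and Lpl (0.84). Msr1 was nearest to Lrpap1, C5ar1 and Ctss (0.92 each), and Cd36 to Cd53 (0.94), Itgam (0.92) and Stx7 (0.91), of which Ctss, Cd53 and Itgam are among the 14 macrophage markers. Stab1 was nearest to Ehd4 (0.93), Slc37a2 (0.92) and Picalm (0.91), Marco to Slc13a3 (0.90), Cd55 (0.89) and Cxcl13 (0.88), and Scarb1 to Tbl1xr1 (0.79) and Fblim1 (0.74).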

How the data were processed

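Adult cortical microglia from WT and APP mice were sequenced after vehicle or LPS. FastQC, Trimmomatic, kallisto and DESeq2 are the tools named, per the submitters' processing notes. The values the authors deposited are estimated counts per gene symbol from kallisto, already whole numbers (rounding changed 0 of them). Not given in the sources used here are the build, annotation, tool versions and any use of molecular identifiers. Genes totalling under 10 counts over the libraries were not in the tables. Library totals were 13065257 to 31248988 counts (median 21918747), and counting error is only part of the spread between libraries.

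Groups came from the sample titles. CPM used totals adjusted by TMM, and log2 CPM a prior count of 2. Tests were edgeR 4.0.16 quasi-likelihood F tests (R 4.3.3) in 1 fit over 19 libraries with 1 coefficient per group; filterByExpr kept 14113 genes and left out 2828. Benjamini-Hochberg adjustment ran over all genes tested, and a gene was called under 0.05. The same test with library pair as a block drops WT LPS 1, whose number is 5 in its label and 6 in its file. Consecutive numbers were compared as pairs because the rule by which the members were studied names them. Same-numbered APP libraries deviated together weakly (r = 0.13 to 0.35 in the 5 pairs, highest in 59/60). In pair 3/4 the vehicle library did not correlate best with its own partner. Of the WT pairs, 41/42 was at 0.096. Alternatives were DESeq2 1.42.0, voom from limma 3.58.1, title numbers as a block, no filter, and leaving out libraries. The scripts were tested on simulated counts. Positions are from GENCODE on GRCm38. No libraries of a group were copies (smallest chi-square per degree of freedom 85.9 over 36 pairings). Members and lists were chosen with earlier results of these data known. Named list genes are those called in an LPS contrast, up to 4 a list by p, and the 3 with the highest mean CPM. A few genes that these rules would name are not reported here.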

Additional observations from a re-analysis of the deposited data

Results flagged for a closer look

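The LPS change of Msr1 differed between pairs of library numbers 41 to 60 and pairs 3 to 22, by −0.68 on the log2 scale in a fit with library pair as a block. The median pair change was 0.51 in pairs 3 to 22, where all 5 pairs rose. In pairs 41 to 60 it was −0.19, and all 4 pairs were lower with LPS, although 57/58 was at −0.007. Set against the summed macrophage markers, Msr1 was lower with LPS only in pair 41/42. The difference between the ranges was called in 6 of 9 fits with 1 pair left out, and not without libraries 57 to 60. What the numbers stand for is not given in the labels, and the split was chosen after the values were seen. Among 28 groups of a gene and condition screened, 0 had a library far enough from the rest to be named.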

How the results depend on the processing

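The group fit called 0 members in each contrast, and this count was 0 under DESeq2, DESeq2 size factors, no filter on low counts, without libraries 57 to 60, and in all fits that left out 1 library. Taking libraries as pairs changed it. With library pairs as a replicate block 1 member was called in WT, 2 in APP and 2 in the average; without libraries 57 to 60 these were 1, 3 and 3, and leaving out each pair gave 0 to 1 in WT, 1 to 3 in APP and 2 to 3 in the average. The APP libraries alone gave 1. Title numbers as a block gave 1 in the average (Mrc1) and 0 in WT and APP, although in WT same-numbered titles did not deviate together (r from −0.091 to 0.066); 8 of 9 library pairs correlated best with their own partner. Voom with pair as a random effect gave 1 in the average. Counts of all genes called rose from 0, 0 and 3 in WT, APP and the average to 21, 83 and 211 with library pairs and to 89, 76 and 178 with DESeq2. With library pairs and without libraries 57 to 60 they were 32, 173 and 282 of 14083 genes. Leaving out each pair gave 3 to 36, 9 to 142 and 116 to 282. In the APP libraries alone 13 of 12308 genes were called. The average had 39 genes called with title numbers as a block and 68 with voom.

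The signs of the LPS changes of Mrc1, Cd5l and Stab1 in WT, APP and the average held in every alternative run. Some small values reversed, and the cause was not tested. The genotype by LPS interaction became −0.37 for Msr1 with title numbers as a block, and for Scarb1 0.59 with library pairs, 0.45 with pairs without libraries 57 to 60 and 0.63 with voom. APP against WT became −0.34 (voom) and −0.060 (without libraries 57 to 60) for Marco with vehicle and −0.11 (voom) for Cd36 after LPS. Without libraries 57 to 60, Scarb1 in pairs 41 to 60 became −0.29 and the Mrc1 difference between ranges 0.19.

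Leaving out 1 library or pair reversed others, with these ranges. The average LPS change was −0.091 to 0.14 for Cd36. The LPS change in APP was −0.25 to 0.72 for Marco. The difference between ranges was −0.35 to 0.063 for Marco. The interaction was −0.33 to 0.31 for Msr1, −0.41 to 0.83 for Scarb1, −0.68 to 0.30 for Marco and −0.60 to 0.014 for Mrc1. The LPS change in WT was −0.010 to 0.59 for Msr1, −0.35 to 0.057 for Cd36 and −1.13 to 0.0073 for Scarb1. In pairs 41 to 60 the LPS change was −0.29 to 0.25 for Scarb1. APP against WT after LPS was −0.040 to 0.37 for Cd36 and −0.66 to 0.11 for Marco. APP against WT with vehicle was −0.54 to 0.39 for Marco, −0.57 to 0.069 for Msr1 and −0.32 to 0.28 for Stab1. Depth limits Cd5l most: its lowest library holds 15 counts. The WT calls with pairs rest on 4 pairs, and in 1 of them the partners correlated less than the rule asks.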
